A study of Mus musculus with 16 samples.

Results

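The diet difference in footpad epidermis that had received an injection of vehicle alone was examined in 8 of the 16 RNA-seq libraries of the study, 4 from mice on an AhR-poor diet (T100 to T103, labelled SYNTH) and 4 from mice on the same diet with indole-3-carbinol, I3C (T108 to T111). All 22155 of the 50600 genes in the count table that had at least 10 counts summed over the 16 libraries were compared. At that limit, 229 genes with exactly 10 counts were kept and 299 genes with exactly 9 were not, while 21610 genes had no count at all. The mice were C57/B6J females from Charles River, placed at 5 wk of age on purified AIN-93M feed, with or without I3C at 200 ppm, for 3 wk. Each mouse in these groups then received 50 μl of PBS in the footpad, and the epidermal cells were collected 6 hr later from epidermis that had been separated from the dermis with dispase. The other 8 libraries came from mice injected with papain, a protease allergen, on the same diets and are used here only where stated. Because mice were caged by diet, effects of the cage and of the diet cannot be told apart, and the labels do not say which of the 3 sequencing units held which library.

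The aryl hydrocarbon receptor (AhR) is a transcription factor that waits in the cytoplasm with the chaperone HSP90 and co-chaperones such as p23, and moves to the nucleus when a ligand binds. There it pairs with ARNT, binds DNA at sites with the core GCGTG, and turns on genes such as the cytochrome P450 Cyp1a1 and its own repressor Ahrr. I3C comes from cruciferous vegetables and is converted in the acid of the stomach to products that bind AhR. In skin, AhR is found in keratinocytes, Langerhans cells and sebocytes, among others, and takes part in keratinocyte differentiation and in the skin's response to pollutants.

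The 8 vehicle libraries held 32932350 to 39943700 counts each. The keratinocyte genes were the most abundant of the marker lists, with 31449 to 40212 CPM on I3C and 25697 to 31678 CPM on the AhR-poor diet for the summed level of 11 basal genes and 40488 to 58764 CPM and 43550.0 to 69053 CPM for that of 16 suprabasal genes. Krt9, the keratin of palm and sole epidermis, was at 1.44, 2.19, 2.29 and 1.89 CPM on I3C and 10.4, 1.77, 3.44 and 10.4 CPM on the AhR-poor diet, which is low for a marker of the labelled site. A gene was called when its adjusted p in edgeR's quasi-likelihood test was below 0.01 and its fold change above 2. At these depths 3 counts correspond to 0.0742 to 0.0900 CPM, depending on the library. Log2 fold changes are given as AhR-poor minus I3C with their standard error, and CPM are counts scaled to a common library size. The p-values measure the spread between mice of these cages.

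Without I3C in the diet, 352 genes were higher (1.59% of those tested) and 0 were lower (0%). At an unadjusted p below 0.05 in edgeR, 1980 genes were higher and 784 lower, and 151 of the latter were lower by more than 2-fold, while DESeq2 called 6 genes lower. The median log2 fold change over all tested genes was -0.01. In each of the 352 genes the 4 AhR-poor libraries lay above the 4 I3C libraries, an arrangement found in 6.45% of all tested genes. Gene by gene, the two-sided exact permutation test of 4 libraries against 4 gives p = 0.0286 for that arrangement, the smallest it can give. The genes called were mostly faint on I3C. The median of their mean level was 0.227 CPM on I3C and 1.95 CPM on the AhR-poor diet, and 272 of them were below 1 CPM on I3C. Of the 352, 87 belong to the first 47 cell type and pathway lists described here and 244 to none, the rest being in 3 lists made later. Members of all these lists were chosen with earlier results of these data known, so the counts by list are descriptive. Of the 9097 genes with a mean of at least 10 CPM on I3C, 10 were called (0.11%). Among them were Elovl6, Scd1 and Plin2 of lipid metabolism, the receptor gene Paqr7, the serpins Serpina3b and Serpina3j, the cell adhesion gene Emb, the protease inhibitor Timp2 and the activation marker Cd83. Summed over the 352 genes, the level was 692, 893, 879 and 1093 CPM on I3C, and 4199, 3968, 2555 and 2989 CPM on the AhR-poor diet. The 10 genes with the lowest p were Pi16, Podxl, Ntn1, Lum, Serping1, Cd36, Clic5, Dpt, Lama4 and Eln, most of them expressed in stroma or vessels. Left without T108, T109, T110, T111 or T100, the test called 195, 209, 193, 233 and 209 genes higher.

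**Figure D1:**
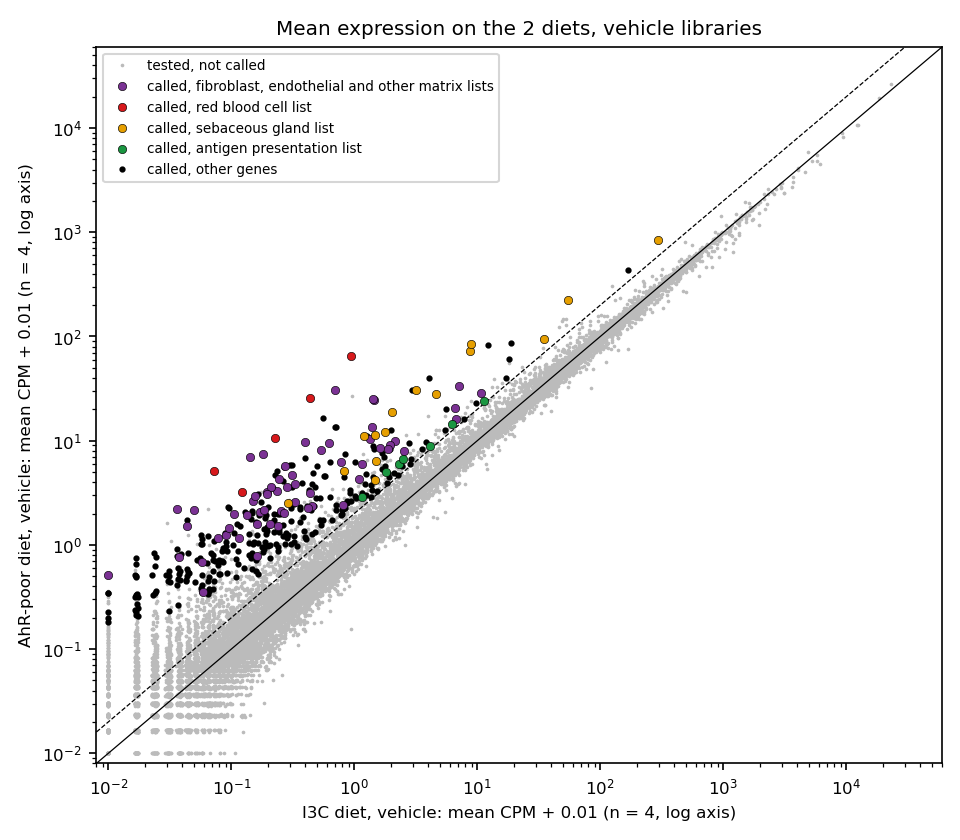
Mean CPM of each of the 22155 genes on the I3C diet (x axis) and on the AhR-poor diet (y axis), 4 vehicle libraries each, on log axes with 0.01 CPM added. The solid line marks equal levels and the dashed line a 2-fold difference. The called genes, 352 in number, lie above the diagonal, most of them at under 1 CPM on I3C, while the abundant genes lie along it.

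Genes of the AhR pathway had log2 fold changes on both sides of 0, and the lists are too short for a count of 0 to set them apart from all tested genes, of which 1.59% were called higher and 0% lower. Of the 5 genes of the receptor complex, 0 were called, with log2 fold changes of -0.05 for Ahr, -0.03 for Arnt, -0.16 for the chaperone gene Hsp90ab1 and -0.11 for Ptges3, which encodes p23. Ahr was at 87.1, 64.0, 60.0 and 47.0 CPM on I3C and at 67.2, 66.2, 56.5 and 59.9 CPM on the AhR-poor diet (log2 fold change -0.05 ± 0.14, 95% interval -0.34 to 0.24, edgeR adjusted p = 0.954). Of the 12 AhR target genes tested, out of 13 listed, 0 were called in edgeR, 1 was higher and 2 were lower at an unadjusted p below 0.05, and their median log2 fold change was -0.19. Cyp1a1, the classic readout of AhR activity, was at 0.660, 1.81, 2.64 and 0.840 CPM on I3C and 1.06, 2.09, 0.668 and 1.05 CPM on the AhR-poor diet. The groups overlapped, and the 95% interval of the log2 fold change was -1.23 to 0.63 (edgeR adjusted p = 0.879). Cyp1b1, a P450 that oxidizes estrogens and polycyclic hydrocarbons, was at 3.88, 2.86, 3.35 and 2.85 CPM on I3C and 8.66, 8.05, 5.64 and 3.92 CPM on the AhR-poor diet. The groups did not overlap, and the gene missed the call in edgeR (log2 fold change 1.02 ± 0.27, adjusted p = 0.0497) but was called with DESeq2 (adjusted p = 0.00712), the 1 target gene that was. Tiparp, a mono-ADP-ribosyltransferase that restrains AhR, was at 265, 142, 144 and 137 CPM on I3C, T108 standing far above the rest, and at 164, 125, 139 and 142 CPM on the AhR-poor diet (-0.28 ± 0.18). The repressor gene Ahrr had 0.270–0.843 and 0.767–1.01 CPM (0.64 ± 0.33), and Nfe2l2, which encodes the oxidative stress factor NRF2, had 85.2–107.7 and 65.5–78.0 CPM (-0.35 ± 0.09, edgeR adjusted p = 0.0419). Aldh3a1, Nqo1, Slc7a5, Selenbp1, Gsta1, Ugt1a6a and Ugt1a6b had log2 fold changes from -0.60 to 0.26. In Gsta1, Ugt1a6a and Ugt1a6b, 80.6, 50.4 and 70.9% of the 100-base stretches are shared with other genes, so the split of their reads is uncertain.

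The sequences before the start sites of 4 of these targets show where the AhR core motif lies near the start. They are the 250 bases upstream of the RefSeq start site on GRCm38.p6, at chr9:57697363-57697612 (plus strand) for Cyp1a1, chr17:79715062-79715311 (minus strand) for Cyp1b1, chr3:65528197-65528446 (plus strand) for Tiparp and chr13:74292332-74292581 (minus strand) for Ahrr. Capitals mark GCGTG or its reverse complement CACGC.
Cyp1a1: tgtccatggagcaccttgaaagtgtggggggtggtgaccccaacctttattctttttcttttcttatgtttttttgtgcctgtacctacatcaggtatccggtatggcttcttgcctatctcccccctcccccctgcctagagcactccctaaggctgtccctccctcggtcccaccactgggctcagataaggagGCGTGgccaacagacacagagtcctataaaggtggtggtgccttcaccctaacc
Cyp1b1: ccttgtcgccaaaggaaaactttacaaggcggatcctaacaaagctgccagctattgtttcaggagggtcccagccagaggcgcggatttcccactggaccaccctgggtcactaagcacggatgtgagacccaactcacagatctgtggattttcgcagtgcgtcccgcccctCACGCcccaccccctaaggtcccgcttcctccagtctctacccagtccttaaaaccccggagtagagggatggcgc
Tiparp: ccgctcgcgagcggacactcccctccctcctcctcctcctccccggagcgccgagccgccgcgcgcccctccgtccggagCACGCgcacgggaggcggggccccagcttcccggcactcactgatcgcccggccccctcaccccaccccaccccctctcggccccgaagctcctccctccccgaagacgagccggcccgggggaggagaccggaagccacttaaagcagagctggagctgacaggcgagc
Ahrr: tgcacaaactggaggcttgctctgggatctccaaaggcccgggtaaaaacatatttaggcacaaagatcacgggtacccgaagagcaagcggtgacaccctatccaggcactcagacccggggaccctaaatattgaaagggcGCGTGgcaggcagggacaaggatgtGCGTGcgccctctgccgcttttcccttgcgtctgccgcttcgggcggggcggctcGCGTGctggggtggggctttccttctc
The motif begins 54 bases before the start in Cyp1a1, 76 in Cyp1b1 and 170 in Tiparp, and Ahrr has it 3 times, the nearest 27 bases before the start. On either strand, the 5 letters were found in 5 of 10 AhR target genes with a promoter in the table, in 28.2% of 27025 promoters of the same length, in 41.1% of the 13664 promoters of tested genes and in 27.8% of the 234 promoters of called genes. The share was thus lower in promoters of called genes than in those of all tested genes, as a description. A match of these letters is no evidence of binding, and sites farther upstream than 250 bases were not searched.

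Elovl6, Scd1 and Plin2, of the 10 called genes with at least 10 CPM on I3C, are among the lipid genes of the sebaceous gland, the appendage that secretes wax esters and triglycerides onto the hair and skin. Of 20 sebaceous genes, a list made with these data in view, 15 were called, where 1.59% of all genes were. All 20 had a log2 fold change above 0, and the median was 2.49. Summed, the list was at 872, 1006, 1048 and 1034 CPM on I3C and 2399, 2689, 1595 and 2092 CPM on the AhR-poor diet, T101 being highest and T102 lowest. The summed level of 11 genes of the hair follicle, to which the gland is attached, also did not overlap (613 to 760.2 CPM on I3C and 838 to 1171 CPM on the AhR-poor diet), and its part in the sebaceous difference was not tested. Krt9, the keratin of palm and sole epidermis, was low, as given above. How much haired skin each library held was not tested. Scd1, which makes oleic and palmitoleic acid from saturated fat, was at 234, 293, 304 and 349 CPM on I3C and 978, 1094, 571 and 711 CPM on the AhR-poor diet. The lowest AhR-poor library lay well above the highest I3C library (log2 fold change 1.51 ± 0.20, edgeR adjusted p = 0.000552). Its neighbour Scd3, a sebocyte desaturase, rose from 3.73–5.70 to 15.5–36.1 CPM (2.63 ± 0.30, edgeR adjusted p = 0.000171). Elovl6, which elongates palmitate to stearate, was at 39.2, 52.0, 62.9 and 62.3 CPM and 233, 296, 149 and 216 CPM on the respective diets (2.05 ± 0.22, edgeR adjusted p = 0.00011). In Scd1 and Scd3, 2.58 and 2.49% of the 100-base stretches are shared with other genes, so their reads are mostly distinct.

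Other steps of sebum formation rose as well. The wax ester synthase genes Awat1 and Awat2 had log2 fold changes of 2.10 ± 0.33 and 1.51 ± 0.25, the fatty acid elongase gene Elovl3 had 2.78 ± 0.46, the cholesterol esterification gene Soat1 had 3.27 ± 0.50, and the fatty alcohol gene Far2 had 3.05 ± 0.49. Cidea and Plin2, which coat lipid droplets, rose by 2.97 and 1.44 on the log2 scale. Mc5r, the melanocortin receptor that drives sebum output, rose from 0.109–0.510 to 1.48–3.84 CPM (3.19 ± 0.44, edgeR adjusted p = 0.000343). Hsd3b6, of steroid synthesis, rose by 3.21, and the lipase gene Pnpla5 by 2.63. The other 5 members were not called: Pparg, the transcription factor of sebocyte and fat cell differentiation (2.36 ± 0.55, edgeR adjusted p = 0.0292), Fasn (0.31 ± 0.12), Mgst1 (0.60 ± 0.17), Acsbg1 (0.42 ± 0.14) and Dgat2l6 (1.86 ± 0.62). Without T109 or T110, 9 of the 20 were called, and the calls of Elovl3, Soat1, Far2, Fa2h, Acoxl and Plin2 were among those lost. Those of Scd1, Scd3, Elovl6, Mc5r, Awat1, Awat2, Cidea, Hsd3b6 and Pnpla5 were kept whichever 1 of the 16 libraries was left out.

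Genes of general lipid synthesis were mostly not called. Of 13 sterol and fatty acid synthesis genes, 1 was called (1.59% of all genes were), Scd1, which is also in the sebaceous list. The median was 0.12, 10 of the 13 were above 0, and 6 were higher at an unadjusted p below 0.05 in edgeR. Their summed level, which includes Scd1, did not overlap, at 2286 to 2631 CPM on I3C and 2853 to 3435 CPM on the AhR-poor diet. Outside the list, Acacb, the mitochondrial acetyl-CoA carboxylase gene, rose from 4.51–7.07 to 14.0–23.2 CPM (1.83 ± 0.20, edgeR adjusted p = 5.72e-05). The membrane progestin receptor gene Paqr7 was at 16.2, 16.04, 15.5 and 24.9 CPM and 76.8, 68.8, 45.4 and 50.1 CPM (1.73 ± 0.22, edgeR adjusted p = 0.000366). Among 11 Serpina3 genes, which encode secreted protease inhibitors, 4 were called, and Serpina3b went from 15.8–23.5 to 52.8–114.6 CPM (2.23 ± 0.31, edgeR adjusted p = 0.000944). Of 45 cytochrome P450 genes, 7 were called, where 1.59% of all genes were. Of these, 6 were among the 21 of family 2 and the other was Cyp3a57 (3.46 ± 0.44). In family 1, the AhR-regulated one, 0 of 2 were called in edgeR, too few genes to set it apart. Cyp1b1 of that family was called with DESeq2. Cyp2g1, an olfactory P450, was at 0.230, 1.17, 0.381 and 1.02 CPM and 13.3, 25.9, 3.09 and 12.2 CPM (4.27 ± 0.69), and its call was lost without T108, T110 or T111. These P450 and serpin families were picked after the values were seen.

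**Figure D2:**
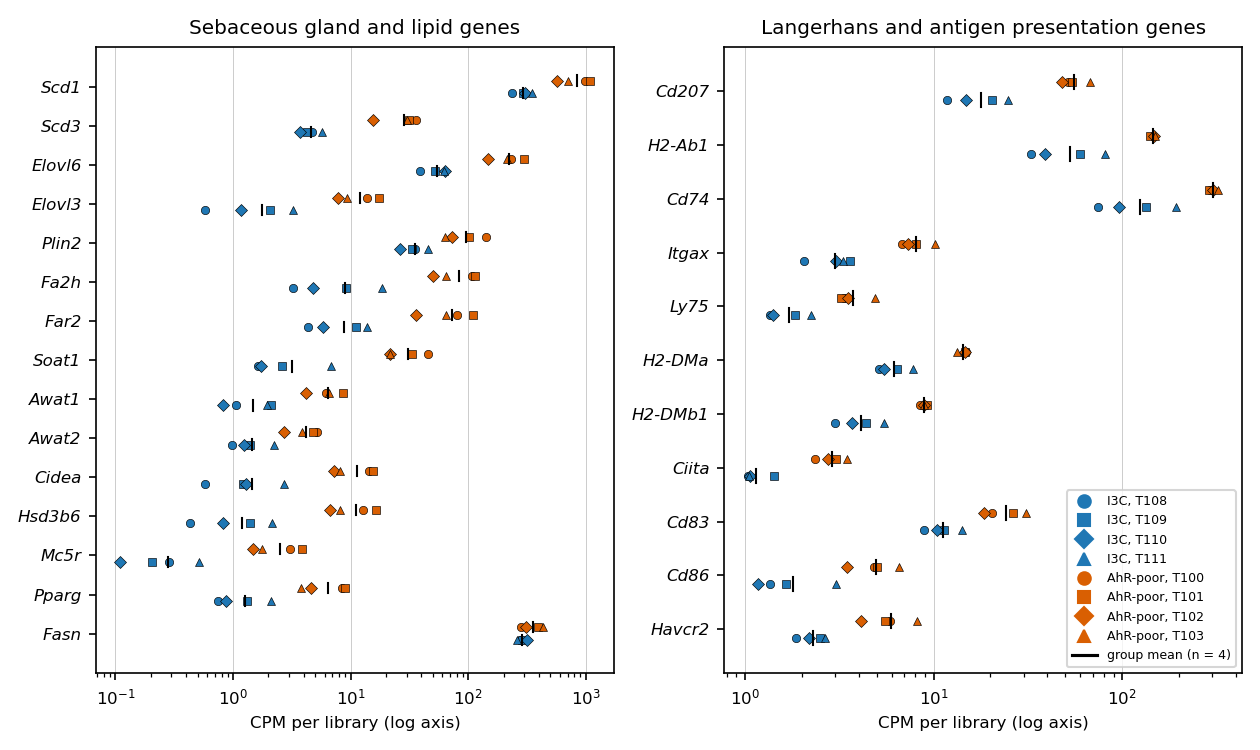
CPM on a log axis in each of the 8 vehicle libraries for lipid genes and Langerhans cell genes, with I3C and AhR-poor libraries as separate points and the group mean as a line. The AhR-poor libraries lie above the I3C libraries in Scd1, Elovl6 and Cd207 alike, and overlap in Fasn.

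Langerhans cells, the antigen-presenting cells that reside in the epidermis, had higher marker levels on the AhR-poor diet, and whether they were called depended on the test. Of 10 genes, 0 were called in edgeR and 8 with DESeq2 (2.69% of all genes with that tool), among them Cd207, H2-Ab1, Cd74, Itgax and Ly75. In edgeR fitted to the 8 vehicle libraries alone, 4 were (2.49% of all genes), Cd207, Ly75, Itgax and Ctss. At an unadjusted p below 0.05 in edgeR it was 10 of 10, and 7 passed a looser limit of an adjusted p below 0.05 in edgeR with the same fold (2.63% of all genes), and in 10 the diets did not overlap (6.45% of all genes). The median log2 fold change was 1.36, and the summed level was 188, 336, 239 and 467 CPM on I3C and 771.2, 754, 774 and 857 CPM on the AhR-poor diet. Cd207, which encodes langerin, the protein of Birbeck granules, was at 11.8, 20.4, 14.8 and 24.7 CPM on I3C and 51.4, 53.9, 48.0 and 67.5 CPM on the AhR-poor diet (1.62 ± 0.34, edgeR adjusted p = 0.0174). The MHC class II genes H2-Ab1 and Cd74 had 1.46 ± 0.33 and 1.28 ± 0.30 (edgeR adjusted p = 0.0257 and 0.0307), and the dendritic cell integrin gene Itgax had 1.43 ± 0.37 (0.0522 in the same test). The I3C libraries varied more among themselves than the AhR-poor ones. In bulk RNA, more cells of a type and more RNA per cell cannot be told apart. The study counted Langerhans cells in other mice without injection, by imaging ear epidermis and by flow cytometry of footpad epidermis. It reported no significant difference between the diets.

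Genes of antigen presentation and activated antigen-presenting cells were called in 7 of 15 (median 1.37), where 1.59% of all genes were. This list was likewise made with the data in view, and 14 of the 15 did not overlap between diets, as 6.45% of all genes did not. H2-DMa and H2-DMb1, which load peptide onto MHC class II, rose from 5.11–7.80 to 13.3–14.8 CPM and from 2.99–5.43 to 8.50–9.24 CPM (1.22 ± 0.22 and 1.11 ± 0.22). Ciita, the master regulator of class II genes, rose from 1.03–1.43 to 2.34–3.46 CPM (1.34 ± 0.26, edgeR adjusted p = 0.00471). The costimulatory gene Cd86 and the maturation marker Cd83 rose by 1.47 and 1.10, with edgeR adjusted p of 0.00949 and 0.00981, close to the limit. Havcr2 and Cd72 rose by 1.37 and 1.42. Without T108 or T110, 0 of the 15 were called, 1 was without T109, T100 or T103, and 2 were without T101 or T102. Without the papain libraries T107, T104, T113 and T114 the number was 3, 4, 4 and 4, and without T106 it was 11.

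The lists with the largest shares of called genes were those of dermal fibroblasts and of blood and lymph vessels. Their members, too, were chosen with earlier results of these data known. Over all tested genes, 1.59% were called higher. Of 18 dermal fibroblast markers, 16 were called, with a median log2 fold change of 4.07, and their summed level was 25.01, 27.1, 25.1 and 29.0 CPM on I3C and 254, 146, 148 and 169.8 CPM on the AhR-poor diet. T100 was highest and the I3C libraries were nearly level. Pi16, a marker of adventitial fibroblasts, was at 0.0574, 0.255, 0.245 and 0.120 CPM on I3C and 9.89, 6.51, 5.71 and 7.67 CPM on the AhR-poor diet, and had the lowest edgeR adjusted p of all genes (5.40 ± 0.40, adjusted p = 9.43e-06). Col3a1 and Col1a1, the main interstitial collagens, rose from 0.402–0.892 to 23.1–43.3 CPM and from 1.14–1.98 to 20.3–32.7 CPM (5.47 ± 0.55 and 4.09 ± 0.41). Lum and Dpt, of the collagen fibril surface, rose by 5.58 and 4.07. These 5 were called whichever 1 library was left out. The members not called were Fbln1, which encodes the matrix protein fibulin-1, with a log2 fold change of 0.21, and the transcription factor gene Twist2 (2.66, edgeR adjusted p = 0.0534). Outside the list, Serping1, which encodes the inhibitor of complement C1, rose from 0.240–0.488 to 4.60–10.7 CPM (4.12 ± 0.37, edgeR adjusted p = 3.99e-05), and Igfbp5, which binds insulin-like growth factors, from 3.15–4.74 to 29.5–64.5 CPM (3.28 ± 0.40). Dcn, the proteoglycan decorin, was higher than those on I3C to begin with, at 7.24, 6.88, 5.39 and 8.91 CPM, and was at 50.4, 27.1, 24.7 and 33.2 CPM on the AhR-poor diet (2.25 ± 0.39, edgeR adjusted p = 0.00494), a call lost without T108, T109, T110, T111, T100, T103 or T104, one at a time. Igf1, a growth factor gene that is also not in the list, had 1.31, 0.556, 0.470 and 0.617 CPM on the AhR-poor diet and 1 count in all on I3C, a ratio of 105.1 with a counting interval of 18.5 to 4188.

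Of 128 matrix genes tested, 33 were called, where 1.59% of all genes were. The counts are given by the role of the product, and differences between these short lists were not tested. Among fibrillar collagens 5 of 11 were called (median 2.44, or 2.16 with genes without counts on I3C at their bound), among small leucine-rich proteoglycans 4 of 10 (2.58, or 2.04 at the bounds) and among elastic fibre genes 5 of 12 (2.07). Eln, which encodes elastin, rose from 0.0287–0.218 to 3.59–11.1 CPM (5.69 ± 0.54, edgeR adjusted p = 4.21e-05), and Fbn1, which encodes the microfibril protein fibrillin-1, rose from 0.0861–0.680 to 7.12–13.4 CPM (4.59 ± 0.62, 0.000814 in the same test). Collagen processing and crosslinking genes were called in 7 of 16, with Loxl1, of elastin crosslinking, at 4.28 ± 0.50, and the median of that list was 0.41. Among network-forming collagens 2 of 8 were called, Col4a1 and Col4a2 of the basement membrane, with 1.63 ± 0.28 and 1.25 ± 0.23, calls that were lost without T109, T110 or T111, among others. Of laminins and nidogens 2 of 14 were called and the median was -0.01, and of transmembrane, multiplexin and anchoring collagens 1 of 7 (median -0.03). Beaded-filament and related collagens were called in 2 of 8 (1.24, or 0.45 at the bounds) and fibril-associated collagens in 1 of 9 (0.63). Keratinocytes also make many members of these last lists, whose summed levels overlapped between the diets, at 1019 to 1677 and 1028 to 1196 CPM for laminins and nidogens. Of matrix metalloproteinases and TIMPs 1 of 18 was called (median -0.04), and of matricellular proteins 3 of 15 (0.52). Of the secreted Wnt, BMP, FGF and IGF signals 5 of 22 were called, among them the Wnt antagonist gene Sfrp4 (6.16 ± 0.68, edgeR adjusted p = 8.92e-05). Without T108, T109, T110, T111 or T100, 3 fibrillar collagens and 2 small proteoglycans were called, and without T108, T109 or T111, 4 collagen processing genes.

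Vessel genes rose as well, and 1.59% of all tested genes were called higher. Of 15 blood endothelial markers 13 were called (median 3.83), with a summed level of 3.82, 6.04, 5.36 and 4.08 CPM on I3C and 59.8, 28.9, 26.3 and 23.8 CPM on the AhR-poor diet. Cdh5, which encodes the junction protein VE-cadherin, was at 0.0861, 0.255, 0.163 and 0.0600 CPM and 4.30, 2.73, 1.56 and 2.01 CPM (4.16 ± 0.51, edgeR adjusted p = 0.000192). Robo4, an endothelial guidance receptor gene, had no count in the I3C libraries and 0.654, 0.424, 0.544 and 0.375 CPM on the AhR-poor diet, at least 24.0-fold higher against a floor of 3 counts over the group. The VEGF receptor gene Flt1, with a log2 fold change of -0.16, and Esam, an endothelial adhesion gene (1.36, edgeR adjusted p = 0.0785), were not called. Outside the list, the sialomucin gene Podxl rose from 0.172–0.357 to 2.90–7.33 CPM (3.99 ± 0.39) and Lama4, of the vessel basement membrane, from 1.87–2.24 to 7.10–13.8 CPM (2.22 ± 0.23), T100 being highest in both. Ntn1, the guidance cue netrin-1, rose by 4.23, the fatty acid transporter gene Cd36 by 2.92, the chloride channel family gene Clic5 by 3.91 and Myoc, which encodes myocilin, by 4.90. Of 6 lymphatic markers 5 were called (median 3.51). The lymphatic hyaluronan receptor gene Lyve1 rose from 0.991–1.55 to 6.41–18.6 CPM (2.96 ± 0.39) and the lymphatic fate regulator Prox1 from 0.229–0.258 to 1.07–3.57 CPM (3.10 ± 0.38). Ccl21a, a lymphatic chemokine gene outside the list that guides dendritic cells, was at 0.115, 0.969, 1.09 and 0.600 CPM and 28.1, 8.31, 11.97 and 5.203 CPM (4.25 ± 0.80), but 50.3% of its 100-base stretches occur in other genes and its call was lost without any 1 of 12 libraries. The lymphatic member not called was the scavenger receptor gene Stab2 (0.43 ± 1.28, edgeR adjusted p = 0.955). Without T109 or T111, 3 of the 6 lymphatic genes were called. Pericyte and smooth muscle genes were called in 1 of 12, the one being Pdgfrb (3.13 ± 0.49), and the summed level of that list overlapped between the diets.

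**Figure D3:**
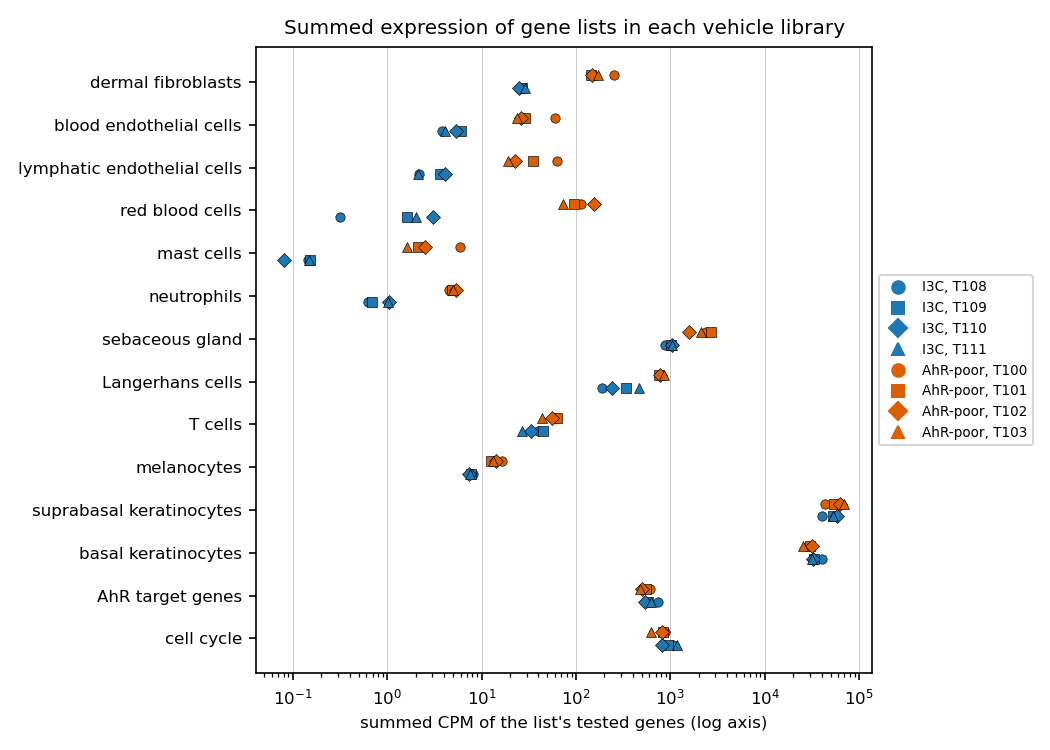
Summed CPM of cell type marker lists in each of the 8 vehicle libraries, on a log axis, with I3C and AhR-poor libraries as separate points. Fibroblast, endothelial, lymphatic and red blood cell sums are separated between the diets, while keratinocyte sums overlap.

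Hemoglobin genes had some of the largest fold changes, and 1.59% of all tested genes were called higher. Of 7 red blood cell genes 5 were called (median 5.55), with a summed level of 0.316, 1.63, 3.07 and 2.04 CPM on I3C and 113.3, 96.3, 156 and 73.3 CPM on the AhR-poor diet, where T102 was highest. The adult beta-globin gene Hbb-bs was at 0.0287, 0.739, 1.71 and 1.23 CPM on I3C and 68.0, 56.8, 88.8 and 46.3 CPM on the AhR-poor diet (6.12 ± 1.06, edgeR adjusted p = 0.00537). Hba-a1, the alpha-globin gene, rose from 0.201–0.707 to 15.9–39.0 CPM (5.90 ± 0.88), and Alas2, of heme synthesis in red cell precursors, from 0.0287–0.210 to 2.28–4.75 CPM (4.80 ± 0.71, edgeR adjusted p = 0.00128). The membrane gene Slc4a1 was at 0–0.0574 and 0–0.0989 CPM and was not called. Near-identical copies share reads: 63.3 and 79.5% of the 100-base stretches of Hba-a1 and Hba-a2 and 49.7 and 54.8% of those of Hbb-bs and Hbb-bt occur in other genes. Without T108, 1 red cell gene was called, and 1 to 3 were without T109, T110, T111, T100 or T102, one at a time.

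The promoter of Hba-a1 is shown because it holds the classic globin elements. It is the 250 bases upstream at chr11:32283422-32283671 (plus strand, GRCm38.p6, RefSeq), in which capitals mark the CCAAT box, the CACCC box and, on either strand, the same AhR core motif as above.
Hba-a1: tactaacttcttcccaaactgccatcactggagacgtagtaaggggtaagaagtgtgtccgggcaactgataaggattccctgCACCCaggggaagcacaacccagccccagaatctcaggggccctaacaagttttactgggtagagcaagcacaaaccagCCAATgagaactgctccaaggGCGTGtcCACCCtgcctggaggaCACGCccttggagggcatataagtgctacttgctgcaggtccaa
The matching window of Hba-a2 is identical over 247 of 247 bases at an offset of 3 bases. On either strand CCAAT was in 34.5% and CACCC in 51.3% of the 27025 promoters.

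Most leukocyte genes other than those of Langerhans cells had a log2 fold change above 0, and fewer were called (1.59% of all genes were). The former held for 14 of 15 monocyte and macrophage genes, 13 of 14 neutrophil genes and 8 of 8 mast cell genes. It also held for 12 of 12 T cell genes and 5 of 5 B cell genes. Of 15 monocyte and macrophage genes 7 were called (median 2.61, or 2.48 with genes without counts on I3C at their bound), and the summed level of the list overlapped, at 188 to 226 CPM on I3C and 205 to 285 CPM on the AhR-poor diet. C1qa, C1qb and C1qc, which encode the chains of complement C1q, rose from 0.435–0.892 to 1.96–3.57, from 0.0861–0.272 to 1.01–2.02 and from 0.0287–0.245 to 1.26–2.83 CPM. The tissue macrophage receptor gene Mrc1 rose by 4.35 and Lyz2, which encodes lysozyme, by 4.40. Both calls were lost without any 1 of the 8 vehicle libraries, with 3 of the list called without T108, T111 or T100 and 4 without T109, T110, T101, T103 or T113. Among mast cell genes 1 of 8 was called (median 4.19, or 3.98 at the bounds). With DESeq2 5 were called (2.69% of all genes with that tool). The one in edgeR, lost without T108, T109, T110, T111, T100, T101 or T106, was the tryptase gene Tpsb2, with 1 count on I3C in all and 0.736, 0.238, 0.247 and 0.0805 CPM on the AhR-poor diet, a ratio of 46.4 with a counting interval of 7.95 to 1869.5. Of 14 neutrophil genes 0 were called in edgeR (median 3.78, or 2.09 at their bounds), and Acod1, induced in activated myeloid cells, was at 0–0.0544 and 1.33–1.88 CPM (edgeR adjusted p = 0.274). With DESeq2 4 of the neutrophil genes were called (2.69% of all genes with that tool), Acod1 (DESeq2 adjusted p = 3.78e-05), Csf3r, Retnlg and Clec4d. In edgeR on the 8 vehicle libraries alone 5 were (2.49% of all genes). The defining gene Ly6g had 0 counts in all 8 libraries. Of 12 T cell genes, which include those of dendritic epidermal T cells, 0 were called (median 0.68), and of 5 B cell genes 0 (median 1.43). Complement genes were called in 7 of 12 (median 2.86, or 2.60 at the bounds), among them C3, the central component, which rose from 0.373–0.570 to 4.43–7.46 CPM (3.53 ± 0.50, edgeR adjusted p = 0.00108). Fibroblasts and macrophages also express several of these. Among melanocyte genes 2 of 8 were called, Dct and Tyrp1 of melanin synthesis, with 2.42 ± 0.32 and 3.01 ± 0.50.

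The summed levels of basal and suprabasal keratinocyte genes overlapped between the diets. Calls were rare among abundant genes in general, at 0.11% of those with at least 10 CPM on I3C, so the counts of 0 do not set the lists apart. Of basal genes 0 of 11 were called and the median was -0.23. Only 1 of the 11 had a log2 fold change above 0. At an unadjusted p below 0.05 in edgeR 3 were lower and 0 higher. Krt14, the basal keratin, was at 14086, 11223, 10988 and 13711 CPM on I3C and 12011, 9879.6, 12321 and 8324 CPM on the AhR-poor diet (-0.23 ± 0.12, 95% interval -0.48 to 0.02). Of suprabasal genes 0 of 16 were called (median 0.47), but 15 had a log2 fold change above 0. In the same unadjusted test 6 were higher and 1 lower. Krt10 had 0.19 ± 0.19 (95% interval -0.21 to 0.59). The cornified envelope genes Ivl and Cdsn and the filaggrin gene Flg were higher on average but not called (0.78 ± 0.28, 1.16 ± 0.40 and 0.83 ± 0.62). Of 19 desmosome and tight junction genes 0 were called, with a median of 0.04, and Dsp, Cldn1, Dsc1, Dsg1a and Tjp3 ranged from -0.07 to 0.30. Stress keratins were at 0 of 4, with Krt16 at -0.21 ± 0.27 and Krt17 at 0.29 ± 0.17. Krt79, a keratin of the sebaceous duct and upper hair follicle, went from 415–569.8 to 655–885 CPM, and its log2 fold change of 0.73 ± 0.14 stayed under the fold limit (edgeR adjusted p = 0.00395). Hair follicle genes, the last of the 3 lists made later, were called in 0 of 11 (median 0.83), but 10 had a log2 fold change above 0. The summed level did not overlap, at 613 to 760.2 CPM on I3C and 838 to 1171 CPM on the AhR-poor diet. That list, too, was made with the data in view.

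Counts of calls in the signalling and inflammatory lists ran from 0 to 7. Of 14 TGF-β ligands, receptors and activators 0 were called (median 0.00), and Itgb8, which encodes an integrin chain that activates TGF-β, was at 7.78, 5.61, 5.88 and 4.02 CPM on I3C and 11.5, 12.2, 8.68 and 6.76 CPM on the AhR-poor diet (0.75 ± 0.21, 95% interval 0.31 to 1.19, edgeR adjusted p = 0.0616). Complement genes and secreted Wnt, BMP, FGF and IGF signals, given above, had 7 of 12 and 5 of 22 called, where 1.59% of all genes were. Of 22 chemokines 1 was called, the eosinophil attractant gene Ccl11 (4.68 ± 0.67), which rose from 0–0.0900 to 0.371–1.25 CPM. Cxcl1, Cxcl3, Cxcl5, Ccl2, Ccl3 and Ccl20 were not called, with log2 fold changes from -0.73 to 2.28. Of 17 inflammatory cytokines and growth factors 0 were called (median 0.06), with Il1b at 2.77 ± 1.01 (edgeR adjusted p = 0.233) and Tslp, Csf1 and Il24 at -0.04, 0.15 and -0.88. The leukocyte integrin genes were called in 0 of 7, with Itgb2 at 1.62 ± 0.41 and Itgb7 at 0.77 ± 0.30. Both with DESeq2 and in edgeR on the 8 vehicle libraries alone, Il1b, Itgb2 and Itgax were called (DESeq2 adjusted p = 0.00400 for Il1b and 0.000322 for Itgb2). Interferon-stimulated genes (0 of 12, Oasl2 at 0.63), NRF2 target genes (0 of 9), clock genes (0 of 14) and limb position factors (0 of 14) had medians from -0.10 to 0.95. Of 11 skeletal muscle genes 0 were called in edgeR and 2 with DESeq2 (2.69% of all genes with that tool), Ckm and Tnnt3. In edgeR on the 8 vehicle libraries alone 4 were (2.49% of all genes), Acta1, Ckm, Tnnt3 and Myl1. All 11 had a log2 fold change above 0, and 8 did not overlap (6.45% of all genes did not). The median of the list was 2.56, or 2.24 with genes without counts on I3C at their bound. Their summed level was 6.45 to 7.10 CPM on I3C and 10.5 to 19.8 CPM on the AhR-poor diet. Sweat gland genes were called in 0 of 6, and their sums of 28.9 to 33.4 and 39.3 to 46.1 CPM did not overlap either. Schwann cell genes were called in 0 of 9, and their sums of 79.6 to 101.4 and 74.8 to 80.4 CPM did overlap. Of the other appendage and fat lists, 1 of 8 adipocyte genes (5 with DESeq2) and 1 of 5 Merkel cell genes were called.

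**Figure D4:**
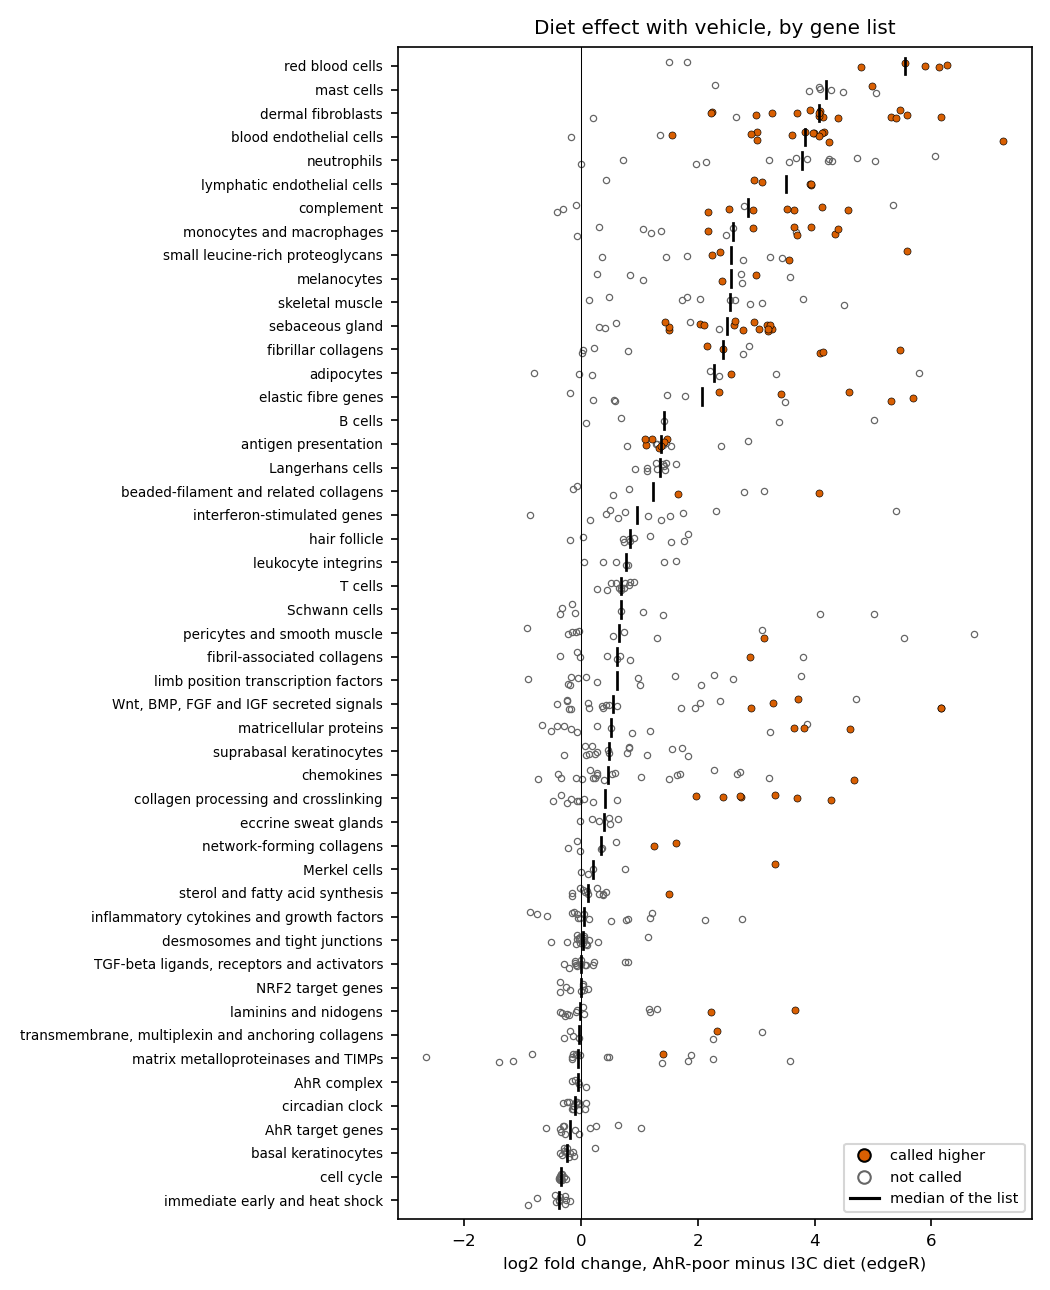
Log2 fold change (AhR-poor minus I3C, vehicle) of each tested gene by list, with called genes as filled points and the list median as a bar. The median bars of fibroblast, endothelial and red blood cell genes lie well above 0, with Flt1 of the endothelial genes below it and Fbln1 of the fibroblast genes at 0.21, while the bars of AhR target, cell cycle and immediate early genes lie below it.

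Few genes were lower on the AhR-poor diet at a looser limit, and most of those by less than 2-fold. With an adjusted p below 0.05 in edgeR at any fold, 22 genes were lower (0.0993%) and 661 higher (2.98%), and 5 of the former were lower by more than 2-fold. The first of them, Popdc3, which encodes a membrane protein that binds cAMP, was at 22.3, 21.8, 22.9 and 25.8 CPM on I3C and 18.0, 17.7, 16.8 and 16.9 CPM on the AhR-poor diet (-0.42 ± 0.09, edgeR adjusted p = 0.0105). Mat2a, which makes the methyl donor S-adenosylmethionine, had -0.45 ± 0.10 (edgeR adjusted p = 0.0127), Sat1, of polyamine catabolism, -0.47 ± 0.11, and Cx3cl1, the ligand of the receptor on macrophages and other leukocytes, -0.39 ± 0.09. Ldlrad4, an inhibitor of TGF-β signalling, had -0.48 ± 0.11, Trp53inp1, a p53 target, -0.38 ± 0.09, and Gnai1, a G protein subunit gene, -0.32 ± 0.08. The transcription factor genes Ikzf4, Sox15 and Elf3 had -0.83 ± 0.18, -0.49 ± 0.12 and -1.04 ± 0.26, and Mmp10, a stromelysin of migrating keratinocytes, had -2.64 ± 0.63 (edgeR adjusted p = 0.0237). Elf3 and Mmp10 were called lower with DESeq2 (DESeq2 adjusted p = 0.00118 and 0.000516). All 11 cell cycle genes had a log2 fold change below 0 (median -0.34) and all 11 immediate early and heat shock genes as well (median -0.37), with 0 called. Hsph1, a heat shock protein gene that DESeq2 called, was at 273, 108.8, 101.9 and 188 CPM on I3C and 80.6, 54.1, 83.5 and 85.2 CPM on the AhR-poor diet (-1.15 ± 0.30, edgeR adjusted p = 0.0575). The summed level of the immediate early and heat shock genes was 44806, 25913, 27352 and 27684 CPM on I3C, where T108 was highest, and 30142, 18964, 25240.0 and 22253 CPM on the AhR-poor diet. Their part in the diet differences was not tested.

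The marker sums of fibroblasts, vessels, red blood cells and sebaceous glands were each higher in all 4 AhR-poor libraries than in any I3C library. So were those of several other cell types and appendages. The adipocyte sum was 7.14 to 9.91 CPM on I3C and 13.1 to 19.6 CPM on the AhR-poor diet, the melanocyte sum 7.45 to 8.10 and 12.5 to 16.6 CPM, the neutrophil sum 0.632 to 1.03 and 4.55 to 5.39 CPM and the mast cell sum 0.0816 to 0.153 and 1.61 to 5.86 CPM. Those of skeletal muscle, hair follicle, sweat gland and Langerhans cells, given above, did not overlap either, nor did those of the short B cell and Merkel cell lists (0.841 to 1.12 and 1.16 to 2.22 CPM, and 0.561 to 0.833 and 1.06 to 2.42 CPM). In T100 the fibroblast, endothelial and lymphatic sums were highest, in T102 the globin sum and in T101 the sebaceous sum. The part of RNA from any of these cells in the other differences was not tested.

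In mice injected with papain, the same diet comparison called 1583 genes higher (7.15%), and 335 genes were called in both, 95.2% of those called with vehicle and 21.2% of those called with papain. The vehicle and papain comparisons share no library but are from the same fit. The log2 fold change was larger with papain in 278 of the 352, and its median over them was 4.07, against 3.01 with vehicle. Fibroblast genes had a median of 6.47 with papain, against 4.07 with vehicle. In Dcn the diet difference was 6.23 with papain, 3.98 more than with vehicle (edgeR interaction adjusted p = 0.0165), and in Col6a2 it was 4.60, 2.94 more (0.0214 in the same test). Of the lipid genes, Scd1 had 1.74 ± 0.21 with papain and Elovl6 1.95 ± 0.22, with an edgeR interaction adjusted p of 0.769 and 0.924. Cyp1a1 had 2.79 ± 0.52 with papain (edgeR adjusted p = 0.000919), against -0.30 with vehicle, and the interaction missed the limit (edgeR adjusted p = 0.065). Called with vehicle alone were 17 genes, and in 2 of these the interaction passed an adjusted p of 0.05 in edgeR. They were Nrp2, a receptor gene for semaphorins and lymphatic growth factor, at 8.67, 7.57, 6.20 and 8.85 and 20.2, 15.2, 16.1 and 13.6 CPM with vehicle (1.06 ± 0.17) and -0.11 with papain, and Parm1, which encodes a mucin-like membrane protein, at 1.64 ± 0.32 with vehicle and -0.55 with papain. Rasgrp3, Tspan8 and Acot7, also called with vehicle alone, had 3.09, 1.46 and 1.05 with vehicle and 1.14, 0.87 and 0.44 with papain. The vehicle call of Nrp2 was lost without T109, T110 or T100, and that of Parm1 without T108, T109, T110, T111, T100 or T102. Over all 352 genes the interaction passed in 9 (0.329% of all tested genes did), 7 of them with the larger difference after papain.

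**Figure D5:**
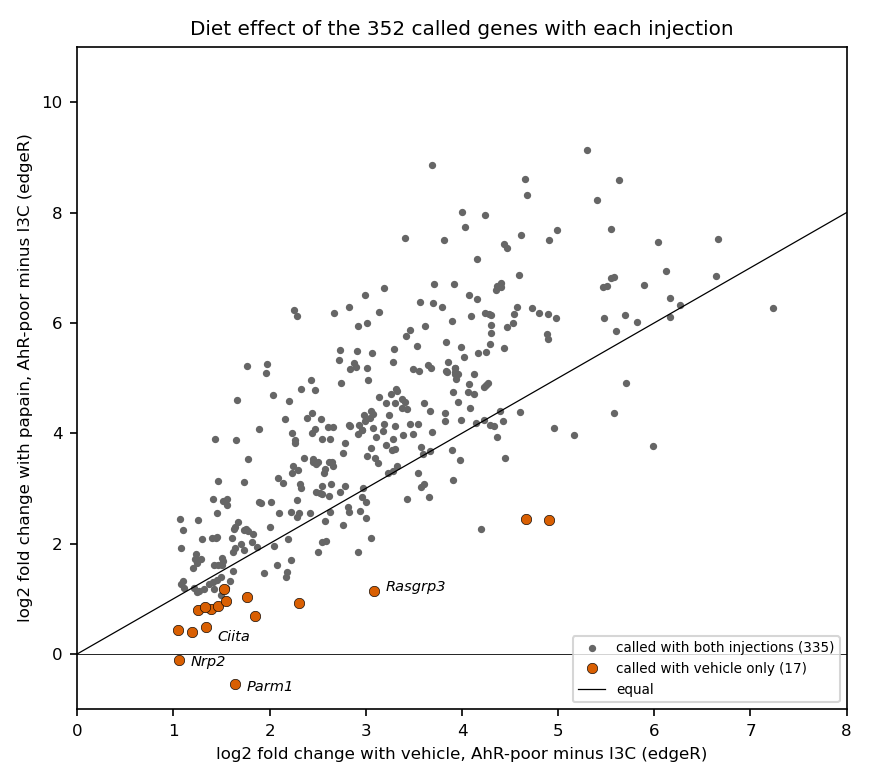
Log2 fold change of each of the 352 called genes, AhR-poor minus I3C, with vehicle (x axis) and with papain (y axis). Most points lie above the diagonal, 278 of 352 in all, while Nrp2 and Parm1 lie below 0 with papain.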

How the data were processed

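Epidermal cell RNA from 16 mice was sequenced from TruSeq Stranded mRNA libraries as paired 100-nt reads. The authors aligned the reads with STAR to mm10 and deposited 1 table of raw counts per gene. The counting tool, the annotation and the strand setting are not given in the sources used here. Without the strand setting, reads of genes that overlap on opposite strands cannot be told apart.

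Genes with at least 10 counts over the 16 libraries were kept. Counts were scaled by TMM and fitted with edgeR (4.0.16) in R (4.3.3), with quasi-likelihood and the 4 diet and treatment groups as the design, and p-values were adjusted by Benjamini-Hochberg over all 22155 genes. The spread is thus estimated from all 16 libraries, each from 1 mouse. A call needs an adjusted p below 0.01 and a fold change above 2, as in the study's DESeq2 analysis. DESeq2 (1.42.0), other scalings and filters, the vehicle libraries alone and leaving out each library were alternatives. Intervals of ratios with 1 to 3 counts are exact and cover counting error only, and a group without counts was set at 3 counts in all. Gene IDs were matched to symbols for 50376 of 50600 genes.

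The members and the 47 gene lists, and 3 further lists (sebaceous gland, hair follicle, antigen presentation), were chosen with earlier results of these data known. Genes named are the 10 called genes with the lowest p, the 10 with the largest fold among those of at least 5 CPM, the 10 lower genes with the lowest p, leading members of each list, the AhR genes, 5 genes called with vehicle alone and list genes that the study names. P450 and serpin genes, Acacb, Paqr7, Mc5r, Dgat2l6, Hsph1 and Parm1 were among those chosen after their values were seen. Promoters are RefSeq sequences on GRCm38.p6. The values of some genes are not reported here.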

Additional observations from a re-analysis of the deposited data

Results flagged for a closer look

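In groups of 4, a library was taken as standing apart when its gap to the nearest other exceeded Dixon's 95% limit as a share of the group's range. Of 444 groups examined, over the genes named and the marker list sums, 31 met this, and chance alone gives about 1 in 20. T100 stood above the other AhR-poor libraries in Lum (3.38 CPM, the others 1.56 to 1.82), Igfbp5 (64.5, 29.5 to 34.7), Myoc (23.6, 13.8 to 14.7), Podxl (7.33, 2.90 to 3.20), C1qc (2.83, 1.26 to 1.51), Mrc1 (1.88, 0.900 to 1.05), Mcpt4 (1.42, 0.291 to 0.402), Cma1 (1.01, 0.161 to 0.265), Oasl2 (1.36, 0.483 to 0.593) and Esam (0.681, 0.371 to 0.420). Its blood endothelial sum was 59.8 CPM against 23.8 to 28.9.

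T108 stood above the other I3C libraries in Tiparp (265 CPM, 137 to 144), Mat2a (354, 264 to 279) and Fos (7703, 5009 to 5438). Its sums were 4909 CPM for matricellular proteins (2068 to 2275), 607 for matrix metalloproteinases and TIMPs (465 to 484), 352 for NRF2 target genes (292 to 296) and 44806 for immediate early and heat shock genes (25913 to 27684). The other I3C libraries that stood apart were T109 in Serpina3n (0.918 CPM, 0.258 to 0.360) and Ciita (1.43, 1.03 to 1.06), T111 in Col4a2 (4.92, 7.10 to 7.49) and Paqr7 (24.9, 15.5 to 16.2), and T110 in the mast cell sum (0.0816, 0.144 to 0.153). On the AhR-poor diet T103 stood apart in Dgat2l6 (0.912 CPM, 0.371 to 0.450), Ly75 (4.91, 3.23 to 3.51), H2-DMa (13.3, 14.6 to 14.8), Krt5 (9016, 11260 to 11632), Selenbp1 (9.39, 11.1 to 11.4) and the antigen presentation sum (836, 742 to 756), and T101 in Hsph1 (54.1, 80.6 to 85.2) and Csf1 (20.1, 23.3 to 23.4).

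The diet difference itself differed between papain and vehicle in 5 of the genes named, by edgeR's interaction test. The papain minus vehicle difference in log2 fold change was 3.98 in Dcn (edgeR adjusted p = 0.0165), 2.94 in Col6a2 (0.0214), 2.92 in Esam (0.0409), -1.16 in Nrp2 (0.0493) and -2.19 in Parm1 (0.0336). What lies behind these was not tested.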

How the results depend on the processing

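No called gene among those named changed direction in any alternative. The number of genes higher was 352 as reported and stayed between 341 and 502 with other scaling, with filterByExpr, with every gene that had a count, without a minimum fold or with the 8 vehicle libraries alone. It was 58 when at least 10 counts were required in every library, which by construction removes genes near 0 on I3C (13146 genes tested), 595 with DESeq2, which kept all 352, and 582 at an adjusted p below 0.05 in edgeR. The number lower was 0 as reported, 6 with DESeq2 and 5 at an adjusted p below 0.05. DESeq2 also called 12 of the antigen presentation genes (7 in edgeR), 3 pericyte and 3 matrix metalloproteinase and TIMP genes (1 in edgeR each), 2 fibril-associated collagens and 2 chemokines (1 each), and, besides the lists given in the report, Pparg, which edgeR also called with the 8 vehicle libraries alone. With 1 library left out, the total ranged from 193 (T110) to 430 (T106) higher and from 0 to 2 lower. Without T108, T109, T111 and T100 the number higher was 195, 209, 233 and 209. No paired analysis was possible because the library codes carry no replicate number shared between groups.

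Some differences near 0, none of them called, changed sign with 1 library left out. Their log2 fold changes ran from -0.0626 to 0.20 for Krt2, from -0.21 to 0.0341 for Dsp, from -0.0082 to 0.19 for Cldn1, from -0.0187 to 0.49 for Dsc1, from -0.0508 to 0.19 for Dsg1a, from -0.37 to 0.15 for Krt16, from -0.70 to 0.12 for Cyp1a1. They ran from -0.36 to 0.0112 for Tiparp, from -0.19 to 0.18 for Ugt1a6a, from -0.17 to 0.13 for Ahr, from -0.0895 to 0.0041 for Arnt, from -0.0726 to 0.54 for Ccl20, from -0.28 to 0.29 for Tslp, from -0.51 to 0.90 for Stab2 and from -0.37 to 0.16 for Flt1. With library size alone as the scaling, the sign changed to 0.00797 for Ugt1a6a, 0.00697 for Ahr, 0.0157 for Arnt and 0.0156 for Tslp. The cause of these moves was not tested. With 32932350 to 39943700 counts a library, 3 counts are 0.0742 to 0.0900 CPM, and below that a level cannot be told from none.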
